A study of Rattus norvegicus with 12 samples.

Results

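The 7 transcripts described here are the mitochondrially encoded subunits of respiratory complex I: Mt-nd1, Mt-nd2, Mt-nd3, Mt-nd4, Mt-nd4l, Mt-nd5 and Mt-nd6. They were taken by Ensembl identifier from count tables that list 32662 identifiers, and all 7 had a row and passed the filter on low counts. The tables hold identifiers only, and the symbols are those given with the list of members. RNA was sequenced from hippocampal CA1 pyramidal cells of male adult rats of the Wistar strain. The superficial and deep sublayers of the cell layer were collected separately by laser microdissection from 20 µm frozen sections. Epileptic rats had been given kainate, an agonist of ionotropic glutamate receptors, at 5 mg/kg every hour until status epilepticus set in, and their RNA was collected in the chronic phase, 6 to 8 weeks after it. Control rats had saline or DMSO as vehicle and were otherwise treated in a similar way. The 4 groups were superficial epileptic, deep epileptic, superficial control and deep control CA1, each with 1 library from each of 3 rats, so that 12 libraries came from 6 rats. The labels give an age of 45 to 50 days for all groups. Since epileptic rats were sampled 6 to 8 weeks after status epilepticus, this can hardly be their age at RNA collection. The age at collection is not given here. Epileptic rats also received diazepam after status epilepticus, and their seizures were noted during handling or, in some rats, by electrophysiological recording, per the labels' protocols.

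Complex I, NADH:ubiquinone oxidoreductase, takes electrons from NADH into the respiratory chain and pumps protons across the inner mitochondrial membrane. Its mitochondrially encoded subunits form the core of the membrane arm, while the remaining subunits come from nuclear genes. Mitochondrial DNA is transcribed from both strands into long precursors that are cut into single RNAs. Mt-nd6 is the only one of these mRNAs encoded on the strand opposite to the others. Mt-nd4l and Mt-nd4 are read from 1 shared mRNA on which their reading frames overlap. Neurons depend heavily on oxidative phosphorylation, to which this complex is an entry point.

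The libraries held 20623196 to 25893962 gene counts in epileptic and 16135358 to 19550582 in control rats. The 7 subunits together made up 0.474% ± 0.0567 of the gene counts in superficial and 0.549% ± 0.0788 in deep epileptic CA1, and 0.470% ± 0.0204 in superficial and 0.525% ± 0.0261 in deep control CA1 (SD, n = 3 each). The libraries of epileptic rats 2 and 3 stood apart from the others. Between 22.3 and 26.7% of their alignments fell outside annotated exons, against 37.7 and 43.0% in epileptic rat 1 and 35.8 to 44.0% in control rats. Alignments with no unique position made up 37.9 to 45.6% in epileptic rats 2 and 3, against 25.2 and 30.6% in epileptic rat 1 and 25.9 to 34.8% in control rats. The most abundant identifier, ENSRNOG00000043866, took 11.0 to 22.8% of gene counts in epileptic and 8.25 to 12.97% in control libraries. Other identifiers are not paired with gene names in the sources used here. The nuclear complex I genes, the other mitochondrial RNAs and markers of CA1 neurons or other cell types were therefore not analysed, and the labelled tissue was not checked against its markers.

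Counts differed widely between the subunits. Mt-nd1, Mt-nd2 and Mt-nd5 were the abundant ones, with 27068 to 48121, 21526 to 38203 and 18887 to 27874 counts per library. By total count they ranked 26th, 33rd and 62nd of all identifiers. Mt-nd3 had 2656 to 9623, Mt-nd6 2689 to 7823 and Mt-nd4l 3189 to 5326 counts. Mt-nd4 was the lowest, with 840 to 1770 counts, and lay below Mt-nd4l in all 12 libraries, although Mt-nd4 is the longer reading frame of the mRNA they share. The ratio of Mt-nd4 to Mt-nd4l counts was 0.266 to 0.358 in epileptic and 0.238 to 0.331 in control libraries. Reads that also match nuclear copies of mitochondrial DNA would be tallied as not unique rather than to a gene. Their part in the low count of Mt-nd4 was not tested. Gene lengths were not used here, so these counts do not rank the other subunits by transcript number. Counting error alone was at most 3.45% for Mt-nd4 and 1.94% for the others.

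Levels below are CPM, that is, counts scaled to library size after TMM normalization, given for rats 1, 2 and 3 in this order.

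Mt-nd1 (ENSRNOG00000030644) sits where the membrane arm meets the arm that carries the electrons, next to the quinone channel. Its level was 1344, 1962 and 1842 CPM in superficial and 1440, 2139 and 2540 CPM in deep CA1 of epileptic rats. It was 1355, 1641 and 1458 CPM in superficial and 1617, 1417 and 1694 CPM in deep CA1 of control rats. Epileptic rats 2 and 3 were above all control libraries of the same sublayer, while epileptic rat 1 lay below them in superficial CA1 and within their range in deep CA1. The order of group means ran from deep epileptic through superficial epileptic and deep control to superficial control, and the ranges of all neighbours in this order overlapped.

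Mt-nd2 (ENSRNOG00000031033), Mt-nd4 (ENSRNOG00000029707) and Mt-nd5 (ENSRNOG00000029971) are the antiporter-like subunits of the membrane arm, the parts assigned to proton pumping. Mt-nd2 had 1109, 1558 and 1399 CPM in superficial and 1340, 1797 and 1941 CPM in deep CA1 of epileptic rats. In control rats Mt-nd2 had 1157, 1152 and 1299 CPM in superficial and 1448, 1478 and 1577 CPM in deep CA1. Every control superficial library was below every control deep library for this transcript, and 21.7% of all identifiers had control sublayers that did not overlap, in either direction. Epileptic rat 1 lay below all controls of the same sublayer and epileptic rats 2 and 3 above them. Group means of Mt-nd2 ran from deep epileptic through deep control and superficial epileptic to superficial control, with overlapping ranges between neighbours.

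Mt-nd5 had 887.7, 1136 and 1001 CPM in superficial and 1090, 1288 and 1438 CPM in deep CA1 of epileptic rats. In control rats it had 983.5, 1010 and 1040 CPM in superficial and 1163, 1157 and 1231 CPM in deep CA1. Its level varied little between control rats, with a coefficient of variation of 2.80% in superficial and 3.47% in deep CA1, against 12.35% and 13.7% in superficial and deep CA1 of epileptic rats. Both deep groups had higher means than both superficial groups, and the deep control range lay wholly above the superficial control range, one of the 21.7% of identifiers without overlap between control sublayers. The other neighbours in the order, the 2 deep groups and the 2 superficial groups, overlapped.

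Mt-nd4 had 42.3, 70.2 and 54.3 CPM in superficial and 65.0, 85.2 and 77.8 CPM in deep CA1 of epileptic rats. In control rats it had 52.7, 54.7 and 45.1 CPM in superficial and 58.8, 52.4 and 52.6 CPM in deep CA1. The 3 deep epileptic libraries were above the 3 deep control libraries, and 18.5% of all identifiers likewise had deep groups that did not overlap, in either direction, whereas the superficial groups overlapped. The overlapping-frame partner Mt-nd4l (ENSRNOG00000031053), a small subunit beside Mt-nd6 in the membrane arm, had 158.8, 217.1 and 184.7 CPM in superficial and 181.6, 244.2 and 285.0 CPM in deep CA1 of epileptic rats. In control rats Mt-nd4l had 159.4, 194.2 and 171.3 CPM in superficial and 194.9, 220.7 and 193.9 CPM in deep CA1. Epileptic and control libraries overlapped for Mt-nd4l in both sublayers. For both transcripts the deep epileptic mean was the highest, at 76.0 ± 10.2 CPM for Mt-nd4 and 236.9 ± 52.1 CPM for Mt-nd4l (SD, n = 3 each), and each group overlapped with the next in the order.

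Mt-nd3 (ENSRNOG00000033615) is a small subunit near the quinone channel, and its loop there is known for moving between the active and the deactive form of the enzyme. Its level was 286.5, 392.3 and 256.6 CPM in superficial and 404.1, 459.2 and 341.5 CPM in deep CA1 of epileptic rats. It was 156.7, 207.4 and 148.3 CPM in superficial and 189.8, 262.1 and 157.6 CPM in deep CA1 of control rats. In each sublayer all 3 epileptic libraries were above all 3 control libraries, epileptic rat 1 included, and 24.5% of all identifiers in superficial and 18.5% in deep CA1 likewise had groups that did not overlap, in either direction.

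Mt-nd6 (ENSRNOG00000029042) is the membrane-arm subunit encoded on the opposite strand. Its level was 125.0, 191.7 and 340.6 CPM in superficial and 163.5, 209.9 and 359.6 CPM in deep CA1 of epileptic rats. It was 332.2, 418.5 and 319.5 CPM in superficial and 384.7, 284.7 and 355.8 CPM in deep CA1 of control rats. Both libraries of epileptic rats 1 and 2 lay below all 6 control libraries, and those of epileptic rat 3 lay within the control range. The order of group means, from superficial control through deep control and deep epileptic to superficial epileptic, had overlapping ranges throughout. The sources used here do not say whether counting took the strand into account. Reads from the heavy-strand precursor across this gene therefore cannot be told apart from Mt-nd6 mRNA.

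**Figure D1:**
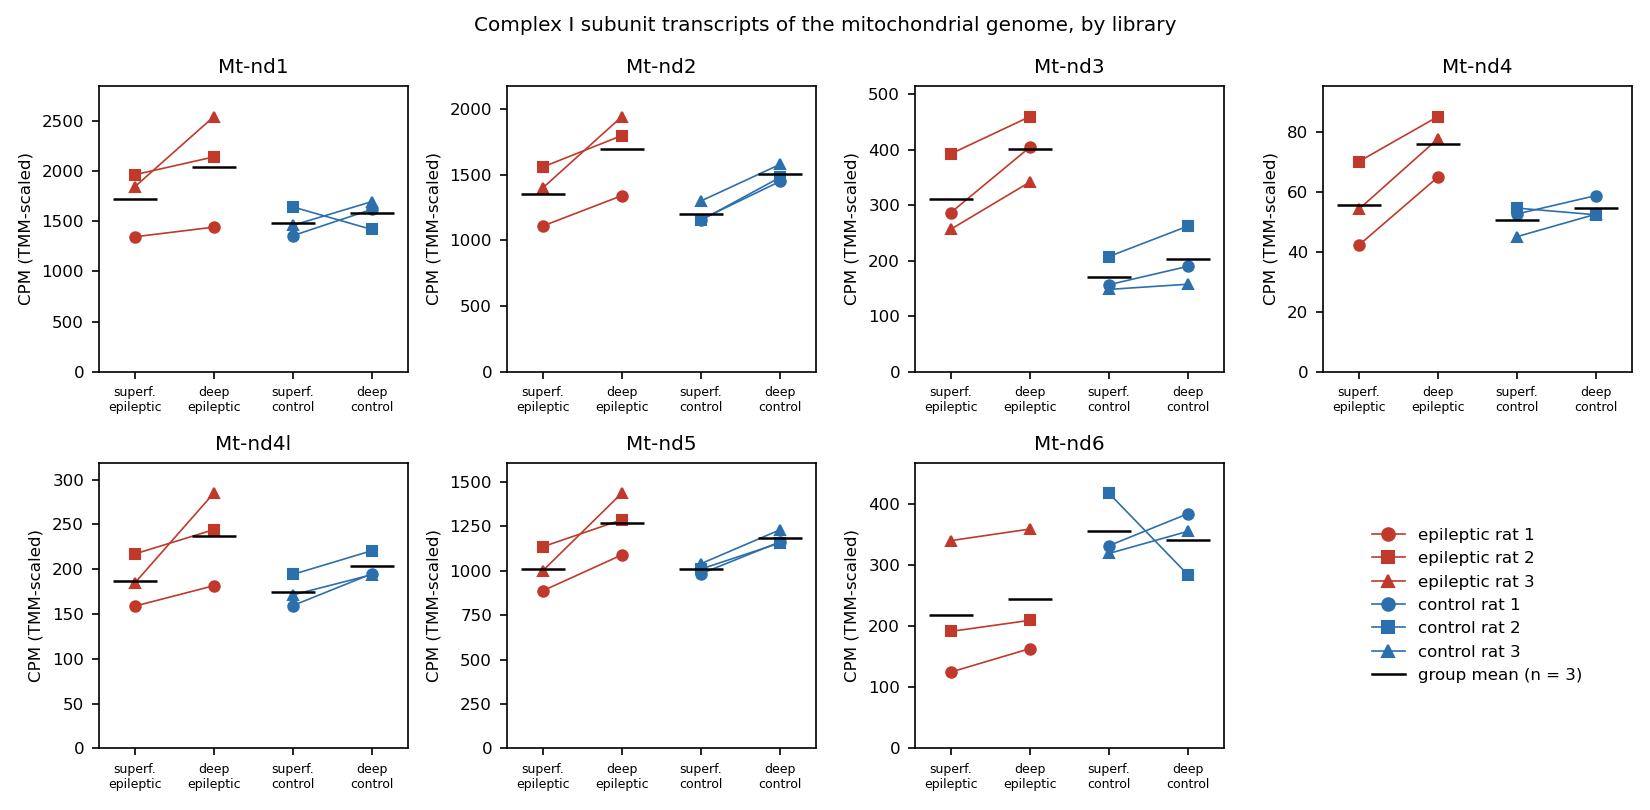
Level of each subunit transcript in CPM (TMM-scaled, linear axis from 0) in the 12 libraries, with 1 marker shape per rat number, lines joining the 2 sublayers of 1 rat and black bars at the group means (n = 3). Mt-nd2, Mt-nd3, Mt-nd4l and Mt-nd5 are lower in superficial than in deep CA1 in all 6 rats, as are 10.5% of all identifiers tested. Mt-nd3 is higher in all epileptic than in all control libraries of its sublayer. Of all identifiers, 24.5% in superficial and 18.5% in deep CA1 likewise do not overlap, in either direction. Mt-nd6 is low in epileptic rats 1 and 2.

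The first question of the design is how superficial and deep CA1 differ, which was tested within rats, with libraries matched by replicate number. In epileptic rats 5 of the 7 subunits were called as lower in superficial than in deep CA1, and in control rats 3 of 7, and none was called as higher in superficial CA1. The fitted differences were below 0 for 7 of 7 subunits in epileptic and 6 of 7 in control rats, with Mt-nd6 the exception. Of all 14791 identifiers tested, 10% were called in epileptic and 8.44% in control rats, and 5% and 4.18% were called as lower in superficial CA1. The median log2 fold change of the 7 subunits, superficial over deep, was −0.33 in epileptic and −0.22 in control rats, against 0.02 and 0.01 over all identifiers tested. Calls come from edgeR's quasi-likelihood test, with a term for each rat and Benjamini-Hochberg adjustment over all identifiers, at an adjusted p below 0.05. Without the term for each rat, no subunit was called in either condition, with an adjusted p of at least 0.4564 for those called above. These are bulk samples, in which fewer cells of a type and less RNA per cell cannot be told apart.

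In epileptic rats the lowest ratio was that of Mt-nd4, with a level in superficial CA1 at 0.723 times that in deep CA1 (log2 fold change −0.47, SE 0.07, adjusted p = 0.0007998). Mt-nd3 followed at 0.770 times (log2 fold change −0.38, SE 0.06, adjusted p = 0.001043). The other antiporter-like subunits, Mt-nd5 and Mt-nd2, were at 0.794 times (log2 fold change −0.33, SE 0.06, adjusted p = 0.001956) and 0.803 times (log2 fold change −0.32, SE 0.05, adjusted p = 0.001622). Mt-nd4l was at 0.796 times (log2 fold change −0.33, SE 0.07, adjusted p = 0.01029). Without epileptic rat 3 the log2 fold change of Mt-nd4l was −0.18 (adjusted p = 0.03804). For Mt-nd1 the log2 fold change was −0.23 (SE 0.09, adjusted p = 0.1444) and for Mt-nd6 −0.20 (SE 0.16, adjusted p = 0.5004), neither of which passed. Mt-nd1 was called in epileptic rats when control rat 2 was left out of the shared fit (adjusted p = 0.04681), and over its alternatives the adjusted p was 5.58e-05 to 0.8439. Without epileptic rat 3 its log2 fold change was −0.11 (adjusted p = 0.3768). Without the low-count filter all 7 subunits were called, among them Mt-nd6 (−0.19, adjusted p = 0.009781), whose adjusted p was 0.05903 to 0.9486 over the other alternatives.

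In control rats Mt-nd2 was at 0.800 times its deep level in superficial CA1 (log2 fold change −0.32, SE 0.05, adjusted p = 0.001616). Mt-nd5 was at 0.855 times (log2 fold change −0.23, SE 0.06, adjusted p = 0.02371) and Mt-nd3 at 0.849 times (log2 fold change −0.24, SE 0.06, adjusted p = 0.02701). Mt-nd4l was nearly equal at −0.22 (SE 0.07) but did not pass (adjusted p = 0.08403). Mt-nd4 at −0.11 (adjusted p = 0.4311), Mt-nd1 at −0.09 (adjusted p = 0.6292) and Mt-nd6 at 0.06 (adjusted p = 0.8635) did not pass either. Without control rat 1 or 2, neither Mt-nd3 (log2 fold change −0.21, adjusted p = 0.1947 and −0.18, adjusted p = 0.2602) nor Mt-nd5 (−0.22, adjusted p = 0.1676 and −0.24, adjusted p = 0.107) was called. Without control rat 3, Mt-nd5 was not called (−0.22, adjusted p = 0.1722). Leaving out 1 control rat took the number of identifiers called from 1248 to between 416 and 424. Mt-nd2 was called in each of these fits, with an adjusted p of at most 0.03364. In a fit that also held each library's share of alignments outside exons, an alternative added once the data had been seen, Mt-nd3 was not called in control rats (log2 fold change −0.21, adjusted p = 0.0919), while Mt-nd4l was (−0.38, adjusted p = 7.305e-05). Mt-nd4l was also called in control rats when epileptic rat 1 or 3 was left out of the shared fit (adjusted p = 0.04122 and 0.002774). Over all alternatives the adjusted p in control rats was 0.001851 to 0.8949 for Mt-nd3, 0.000258 to 0.6939 for Mt-nd5 and 7.305e-05 to 0.8505 for Mt-nd4l.

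Rat by rat, the superficial library was below the deep library in 6 of 6 rats for Mt-nd2, Mt-nd3, Mt-nd4l and Mt-nd5 and in 5 of 6 for Mt-nd1, Mt-nd4 and Mt-nd6. Over all identifiers tested, 10.5% were lower in the superficial library of 6 of 6 rats. The exception for all of the last 3 transcripts was control rat 2, in which the difference in log2 CPM, superficial minus deep, was 0.21 for Mt-nd1, 0.06 for Mt-nd4 and 0.56 for Mt-nd6. The share of alignments outside exons was lower in the superficial library in 5 of 6 rats, and the share not unique was higher in 5 of 6, epileptic rat 3 being the exception in both. In control rat 2 the share outside exons was 35.8% in the superficial and 40.4% in the deep library, and 34.8% and 28.5% were not unique. In epileptic rat 1, in which all 7 subunits were lower in the superficial library, 37.7% and 43.0% lay outside exons and 30.6% and 25.2% were not unique. The part of these shares in the sublayer differences was not tested beyond the fit with the share outside exons. Without control rat 2, the log2 fold change of Mt-nd6 in control rats was −0.18 (adjusted p = 0.2387) and that of Mt-nd1 −0.23 (adjusted p = 0.1614). The difference of Mt-nd2 was the most even, with a mean of −0.32 ± 0.09 (SD, n = 6), against −0.07 ± 0.32 for Mt-nd6. The share of ENSRNOG00000043866 was also lower in superficial than in deep CA1 of every rat, at 11.0 against 16.6%, 18.7 against 22.8% and 19.1 against 22.5% in epileptic rats. It was 8.25 against 11.3%, 8.35 against 12.97% and 9.37 against 11.8% in control rats. Its part in the subunit differences was not tested. Library sizes that left out this identifier and the 7 subunits gave calls for the same 5 subunits in epileptic and 3 in control rats.

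**Figure D2:**
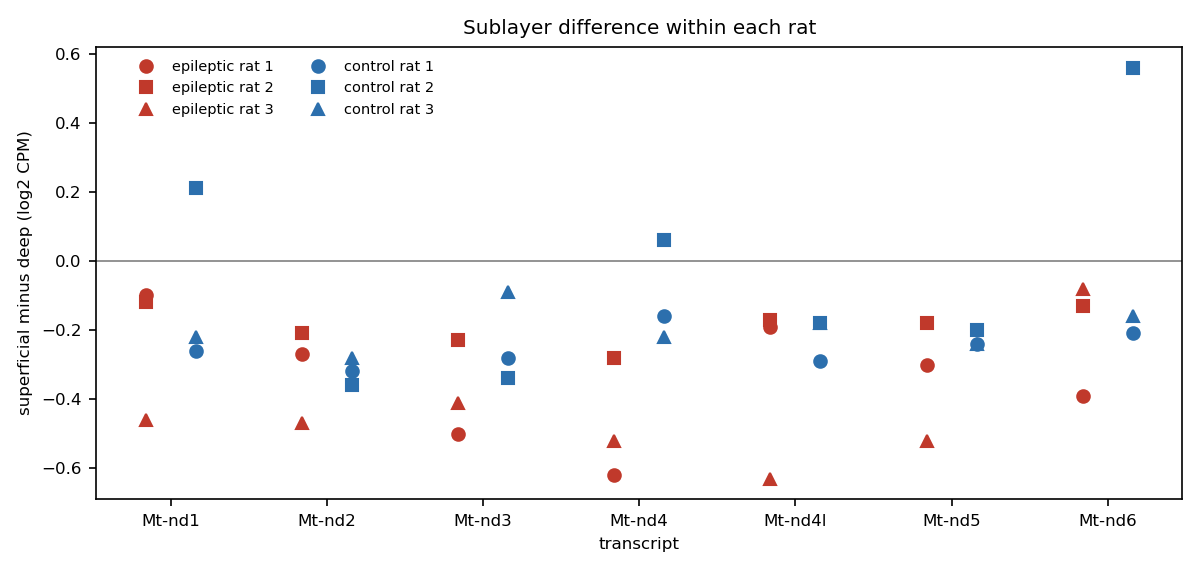
Difference in log2 CPM, superficial minus deep, of each subunit transcript within each of the 6 rats, with epileptic rats left of control rats and 1 marker shape per rat number. All 42 points lie below 0 except those of control rat 2 for Mt-nd1, Mt-nd4 and Mt-nd6.

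The design also asks whether the sublayer difference is altered in epilepsy. None of the 7 subunits passed a direct test of this, and 0% of all identifiers did, while DESeq2 called 2 identifiers. At an unadjusted p below 0.05 stood 1 of 7 subunits and 6.6% of all 14791 identifiers. That subunit, described here because of that p, was Mt-nd4, whose log2 fold change between the sublayers was lower by 0.36 in epileptic than in control rats (difference −0.36, SE 0.10, adjusted p = 0.4041 by edgeR's quasi-likelihood test). Superficial minus deep, Mt-nd4 differed by −0.62, −0.28 and −0.52 in epileptic rats 1, 2 and 3 and by −0.16, 0.06 and −0.22 in control rats. The 3 epileptic values were thus below the 3 control values, with epileptic rat 2 close to control rat 3, and for 11.6% of all identifiers the values of the conditions likewise did not overlap, in either direction. edgeR without the low-count filter called this difference (adjusted p = 0.02907), and over the other alternatives the adjusted p was 0.1377 to 0.9999. The difference of Mt-nd2 between the conditions was smallest, at 0.00 (SE 0.08). Mt-nd4 and Mt-nd4l, called in epileptic rats alone, thus have no difference between the conditions shown by test.

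The comparison of epileptic with control rats within each sublayer called none of the subunits, in a test that called 0.014% of all identifiers in superficial and 0% in deep CA1. DESeq2 called 885 identifiers in superficial and 376 in deep CA1. The fitted changes of the subunits covered a wide range. Mt-nd3 had the largest, at 1.85 times the control level in superficial and 1.98 times in deep CA1. Mt-nd6 went the other way, at 0.625 and 0.716 times in superficial and deep CA1. At an unadjusted p below 0.05 stood 1 of 7 subunits in superficial and 2 of 7 in deep CA1, where 18.9% of 14321 and 13.7% of 14261 identifiers did. The median log2 fold change of the 7 subunits was 0.15 in superficial and 0.22 in deep CA1, and 0.01 and 0.00 over all identifiers. Each sublayer was fitted alone by edgeR's quasi-likelihood test, with 3 against 3 rats.

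Mt-nd3 averaged 311.8 ± 71.3 CPM in superficial epileptic and 170.8 ± 32.0 CPM in superficial control CA1 (SD, n = 3 each). In deep CA1 it averaged 401.6 ± 58.9 CPM in epileptic and 203.1 ± 53.5 CPM in control rats (SD, n = 3 each). The log2 fold change was 0.89 (SE 0.19, adjusted p = 0.1125) in superficial and 0.99 (SE 0.19, adjusted p = 0.1101) in deep CA1 by edgeR's quasi-likelihood test. DESeq2 called Mt-nd3 in both sublayers (adjusted p = 0.0001217 in superficial and 3.551e-05 in deep CA1), as did edgeR without epileptic rat 1 (adjusted p = 0.04478 and 0.04435) and without epileptic rat 3 (adjusted p = 0.04606 and 0.04119). In superficial and deep CA1, edgeR called 1443 and 552 identifiers without epileptic rat 1, and 409 and 275 without epileptic rat 3. Mt-nd3 was not called by edgeR without epileptic rat 2 (adjusted p = 0.2752 and 0.3978). Nor was it called when any control rat was left out (adjusted p of at least 0.286). Fits with the replicate block gave an adjusted p of 0.03126 in superficial and 0.004746 in deep CA1 by edgeR's quasi-likelihood test. These fits called 25 and 239 identifiers, and the number joins different animals of the 2 conditions. Over all alternatives the log2 fold change was 0.62 to 1.04 in superficial CA1 (adjusted p = 0.0001217 to 0.6819) and 0.83 to 1.21 in deep CA1 (adjusted p = 3.551e-05 to 0.5043).

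Mt-nd6 averaged 219.1 ± 110.4 CPM in superficial epileptic and 356.8 ± 53.9 CPM in superficial control CA1 (SD, n = 3 each). In deep CA1 it averaged 244.4 ± 102.5 CPM in epileptic and 341.8 ± 51.5 CPM in control rats (SD, n = 3 each). Its log2 fold change, −0.68 (SE 0.37, adjusted p = 0.367) in superficial and −0.48 (SE 0.27, adjusted p = 0.4594) in deep CA1, did not pass edgeR's quasi-likelihood test. Mt-nd6 was also the most variable of the 7 between rats of a group, with a biological coefficient of variation of 31.5% in superficial and 22.9% in deep CA1, against a median over all identifiers of 15.0% and 13.9%. The value depended on which epileptic rats entered. Without epileptic rat 1 the log2 fold change was −0.39 (adjusted p = 0.384) in superficial and −0.25 (adjusted p = 0.5191) in deep CA1. Without epileptic rat 3 the log2 fold change was −1.16 (adjusted p = 0.05168) in superficial and −0.87 (adjusted p = 0.02056) in deep CA1. That deep fit called 275 identifiers. Over all alternatives the adjusted p was 0.05168 to 0.5921 in superficial and 0.02056 to 0.822 in deep CA1.

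For Mt-nd4 the fitted log2 fold change was 0.15 (SE 0.18, adjusted p = 0.6834) in superficial and 0.48 (SE 0.12, adjusted p = 0.1788) in deep CA1 by edgeR's quasi-likelihood test. DESeq2 called Mt-nd4 in deep CA1 (adjusted p = 0.01926), as did edgeR without epileptic rat 1 (adjusted p = 0.02593), within a range of 0.01926 to 0.5382 over all alternatives. That edgeR fit called 552 identifiers. The remaining subunits had fitted log2 fold changes of at most 0.37. Mt-nd1 was at 0.23 in superficial and 0.37 in deep CA1, Mt-nd2 at 0.19 and 0.18, Mt-nd4l at 0.11 and 0.22 and Mt-nd5 at 0.01 and 0.11, with adjusted p between 0.4147 and 0.9514. Without epileptic rat 1, Mt-nd1 was called in both sublayers (log2 fold change 0.39, adjusted p = 0.04415 in superficial and 0.58, adjusted p = 0.03212 in deep CA1). The fits that called Mt-nd1 called 1443 identifiers in superficial and 552 in deep CA1. Without epileptic rat 3, deep Mt-nd1 was at 0.19, Mt-nd2 at 0.07, Mt-nd4l at 0.07 and Mt-nd5 at 0.01. Without epileptic rat 1, deep Mt-nd2 was at 0.33, Mt-nd4l at 0.39 and Mt-nd5 at 0.21. In superficial CA1, leaving out epileptic rat 2 gave 0.13 for Mt-nd1, 0.08 for Mt-nd2, −0.05 for Mt-nd4, −0.0037 for Mt-nd4l and −0.08 for Mt-nd5. Leaving out epileptic rat 1 there gave 0.33 for Mt-nd2, 0.32 for Mt-nd4, 0.23 for Mt-nd4l and 0.11 for Mt-nd5. In the added fit with the share of alignments outside exons, the fitted changes of Mt-nd1, Mt-nd2, Mt-nd4l and Mt-nd5 were below 0 in both sublayers, from −0.10 to −0.21, as was that of Mt-nd4 in superficial CA1, at −0.30, and none was called. In the same fit Mt-nd3 was at 0.62 (adjusted p = 0.6819) in superficial CA1, below the 0.89 without the covariate, and at 0.97 (adjusted p = 0.1299) in deep CA1. Mt-nd6 had −1.60 (adjusted p = 0.393) and −1.07 (adjusted p = 0.1392), again in superficial and deep CA1. The share outside exons overlapped between the conditions only through epileptic rat 1. The fit therefore cannot fully separate this share from condition.

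**Figure D3:**
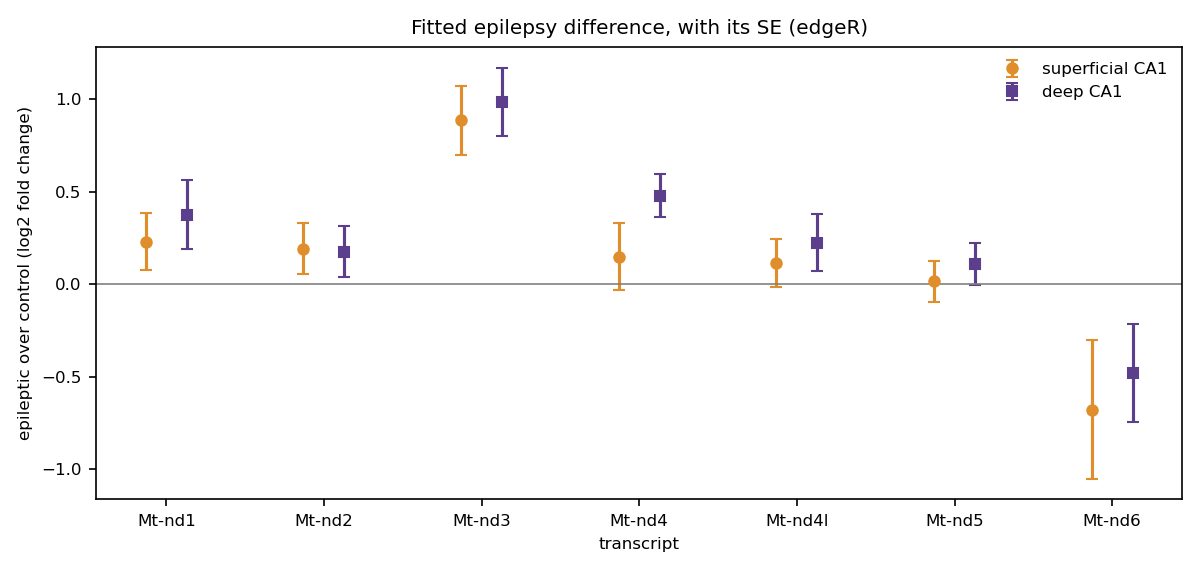
Fitted log2 fold change, epileptic over control, of each subunit transcript in superficial (circles) and deep (squares) CA1, with bars of 1 SE from edgeR's quasi-likelihood test on 3 against 3 rats. Mt-nd3 lies highest, at 0.89 and 0.99, Mt-nd6 lowest, at −0.68 and −0.48, and no value passed the test after adjustment.

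Ratios between subunits within a library do not depend on how libraries are scaled. The Mt-nd3 to Mt-nd6 count ratio was 2.29, 2.05 and 0.753 in superficial and 2.47, 2.19 and 0.950 in deep CA1 of epileptic rats 1, 2 and 3. In control rats it was 0.472, 0.496 and 0.464 in superficial and 0.493, 0.921 and 0.443 in deep CA1. Mt-nd3 reads thus outnumbered Mt-nd6 reads in both libraries of epileptic rats 1 and 2, and in no library of epileptic rat 3 or of a control rat. In each sublayer the 3 epileptic ratios were above the 3 control ratios, but in deep CA1 epileptic rat 3 and control rat 2 were nearly equal. This ratio joins the subunit with the largest fitted rise to the only one with a fitted fall. It was singled out after its values were seen and is given without a test. How often other ratios separate the groups was not computed. Among the levels of single identifiers, 24.5% in superficial and 18.5% in deep CA1 did not overlap, in either direction.

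**Figure D4:**
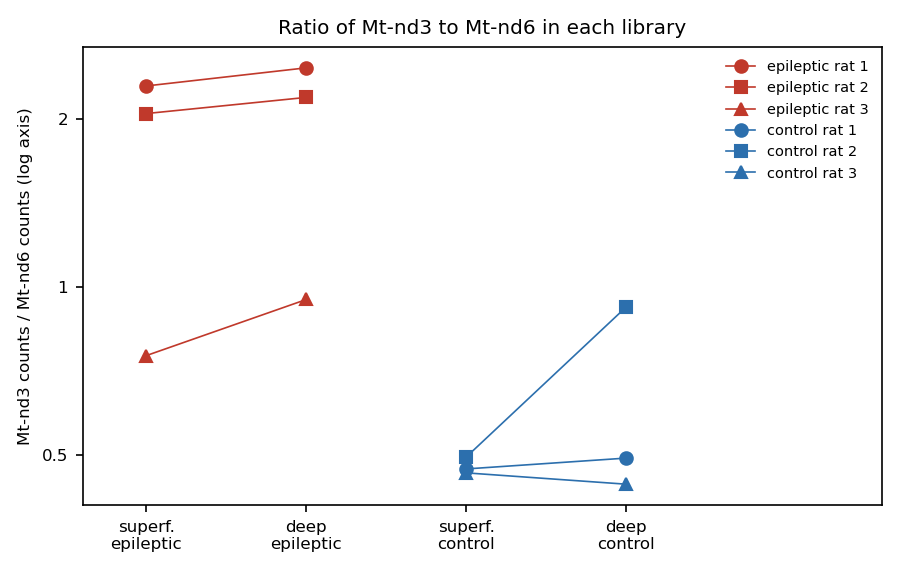
Ratio of Mt-nd3 to Mt-nd6 counts in each of the 12 libraries on a log axis, with lines joining the 2 sublayers of 1 rat and 1 marker shape per rat number. Epileptic rats 1 and 2 lie at 2.05 to 2.47, epileptic rat 3 at 0.753 and 0.950, and control libraries at 0.443 to 0.496 except deep control rat 2 at 0.921.

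Ratios among the abundant subunits moved far less than the ratio singled out above. Mt-nd2 to Mt-nd5 was 1.34 ± 0.0794 in superficial and 1.32 ± 0.0857 in deep CA1 of epileptic rats, and 1.19 ± 0.0555 and 1.27 ± 0.0197 in superficial and deep CA1 of control rats (SD, n = 3 each). Mt-nd1 to Mt-nd2 was 1.26 ± 0.0521 in superficial and 1.19 ± 0.117 in deep CA1 of epileptic rats, and 1.24 ± 0.162 and 1.05 ± 0.0821 in superficial and deep CA1 of control rats (SD, n = 3 each). Of the counts of all 7 subunits, Mt-nd1 made up 29.1 to 36.4% and Mt-nd2 24.6 to 30.4% in a library. The share of Mt-nd3 in these counts was 6.47% ± 1.23 in superficial and 6.97% ± 1.90 in deep epileptic CA1, against 3.83% ± 0.568 and 4.04% ± 1.22 in superficial and deep control CA1 (SD, n = 3 each). The share of Mt-nd6 was 4.45% ± 1.96 and 4.005% ± 0.993 in superficial and deep epileptic CA1, against 7.998% ± 0.911 and 6.74% ± 0.883 in superficial and deep control CA1 (SD, n = 3 each).

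Across the 12 libraries, which come from 6 rats and share animals, depth and scaling, the log2 CPM of Mt-nd1, Mt-nd2, Mt-nd4, Mt-nd4l and Mt-nd5 varied together, with a Pearson r of 0.76 to 0.95 for their pairs. Mt-nd2 and Mt-nd5 were the closest pair. The r of Mt-nd3 with these 5 was 0.33 to 0.70 and that of Mt-nd6 −0.03 to 0.28, while Mt-nd3 and Mt-nd6 had an r of −0.62 and a Spearman rho of −0.52. These values describe the libraries and were not tested. Of 9389 other identifiers with a mean log2 CPM of at least 3, ENSRNOG00000030700 (r = 0.945) and ENSRNOG00000018524 (r = 0.942) were most like the mean of the 7 subunits over the 12 libraries.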

How the data were processed

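The deposited values are whole-number read counts per Ensembl gene identifier, 1 table per library. The authors used HTSeq 0.6.1, SAMtools 0.1.19, STAR 2.5.0c and FastQC 0.11.3 with the Rnor_6.0 genome, per the submitters' processing notes. Strand use in counting and sequencing batches are not given in the sources used here. The 5 closing tallies were left out of library sizes. They show 22.3 to 44.0% of alignments outside annotated features, 25.2 to 45.6% not unique and 0.207 to 0.300% ambiguous, with 28.6 to 35.1% assigned to genes.

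Counts were filtered (edgeR filterByExpr, minimum count 10, minimum total 15), TMM-scaled and tested with edgeR 4.0.16 in R 4.3.3 by the quasi-likelihood test, with Benjamini-Hochberg adjustment over all identifiers tested and a threshold of 0.05. The standard error is the absolute log2 fold change divided by the square root of F, an approximation. Log2 CPM used a prior count of 2. Epileptic and control rats were compared within each sublayer, and sublayers within rats, with a term for each rat over all 12 libraries. DESeq2 1.42.0, limma 3.58.1 (voom), other scalings, no filter, the replicate number as a block or its removal, and leaving out each rat were alternatives. The share of alignments outside features as a covariate was added after seeing the data. The tests of epilepsy in deep CA1 and of sublayers in epileptic rats were checked on simulated data. There both tests missed most of the smallest changes, the epilepsy test more of them, and false calls in both were somewhat above the threshold. A missing call in the epilepsy or the sublayer comparison therefore does not show an unchanged level. The tests of sublayers in control rats and of the change in epilepsy were not checked in this way.

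Sublayers of 1 rat share a number and, per the labels' protocols, an animal. Their deviations from the group means correlated at 0.458 to 0.785. Same-numbered epileptic and control rats had correlations of 0.309, −0.031 and 0.220 in superficial CA1, and of 0.261, 0.206 and 0.372 in deep CA1. Epileptic and control rats of unlike number were not compared, so these values cannot show pairing. The block was therefore kept as an alternative only. Replicates differed by a chi-square of 7.29 to 123.6 per identifier, so no library was counted as a duplicate. The p-values of the comparisons of epileptic with control rats measure the spread between 3 rats a group. Those of the sublayer tests, and of their change in epilepsy, measure the spread of differences within rats. That spread is pooled over the 6 rats of both conditions.

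All 7 members are named. The 2 identifiers most like their mean were chosen by Pearson r over 12 libraries. The members and lists were chosen with earlier results of these data known. The 6 lists of nuclear complex I subunits, assembly factors, other mitochondrial RNAs and mitochondrial gene expression factors, and the cell type markers, were not used, as 0 reference entries pair these identifiers with symbols. Gene lengths and sequences of the members were not used here.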

Additional observations from a re-analysis of the deposited data

How the results depend on the processing

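Of 469 values for single subunits under alternatives, 411 kept their direction and their side of the threshold, 14 lost a call, 22 gained one and 22 changed sign. The cause was not tested unless stated. With the added covariate, the share of alignments outside exons, log2 fold changes between epileptic and control rats turned in deep CA1 to −0.10 for Mt-nd1, −0.15 for Mt-nd2, −0.17 for Mt-nd4l and −0.11 for Mt-nd5. In superficial CA1 they turned to −0.21 for Mt-nd1, −0.10 for Mt-nd2, −0.30 for Mt-nd4, −0.21 for Mt-nd4l and −0.19 for Mt-nd5. As this share overlapped between the conditions only through epileptic rat 1, the fit cannot fully separate it from condition. The near-zero superficial change of Mt-nd5 was −0.0033 without control rat 1, −0.0766 without epileptic rat 2 and −0.0042 in a fit of all 12 libraries. Without epileptic rat 2, superficial Mt-nd4 was −0.0507 and Mt-nd4l −0.0037. Leaving out 1 rat gave up to 0.32 for Mt-nd4, 0.23 for Mt-nd4l and 0.11 for Mt-nd5, each without epileptic rat 1. The sublayer difference of Mt-nd6 in control rats was −0.18 without control rat 2 and up to 0.20 without control rat 1. The change of the sublayer difference in epilepsy turned for Mt-nd2 to −1e-04 with no replicate block, −0.0018 with no low-count filter, −0.0163 without control rat 2, −0.0152 without epileptic rat 1 and −0.0488 without epileptic rat 2, against 0.0844 without epileptic rat 3. It turned to 0.0048 for Mt-nd1 without control rat 2, against −0.23 without control rat 1, and to 0.0386 for Mt-nd4l without epileptic rat 3.

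For epilepsy in deep CA1, where edgeR called 0 identifiers, 8 were called with RLE factors, 8 with library sizes from the other identifiers, 103 with no filter, 376 by DESeq2, 99 with the covariate, 239 with the replicate block, 48 with all 12 libraries and 0 to 552 leaving out 1 rat. DESeq2 called 2 subunits there, the replicate block 1 and leaving out 1 rat 0 to 3. In superficial CA1, where 2 identifiers were called, the counts were 130 with no filter, 885 by DESeq2, 1 by limma-voom, 5 with the covariate, 25 with the replicate block, 279 with all 12 libraries and 0 to 1443 leaving out 1 rat. DESeq2 called 1 subunit there, and leaving out 1 rat 0 to 2. The replicate block also called 1 (Mt-nd3, adjusted p = 0.03126 by edgeR), although the number joins different animals of the 2 conditions. The sublayer difference in epileptic rats (1484 identifiers, 5 subunits) gave 5 identifiers and 0 subunits with no replicate block, 2132 identifiers and 7 subunits with no filter, 811 identifiers by DESeq2, 2521 identifiers and 6 subunits with the covariate, and 536 to 2217 identifiers and 5 to 6 subunits leaving out 1 rat. In control rats (1248 identifiers, 3 subunits) it gave 5 and 0 with no replicate block, 1910 identifiers with no filter, 815 by DESeq2, and 416 to 2071 identifiers and 1 to 4 subunits leaving out 1 rat. The change of the sublayer difference (0 identifiers) gave 178 identifiers and 1 subunit with no filter, 2 identifiers by DESeq2, 31 with the covariate, and 0 to 84 identifiers and 0 subunits leaving out 1 rat. Apart from the calls named here and in the results, the block changed no call of a subunit.

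Without the most abundant identifier in the denominator, the summed share was 0.570% in superficial and 0.696% in deep epileptic CA1, and 0.515% in superficial and 0.596% in deep control CA1, higher by construction. Composition values computed without Mt-nd6 are also higher by construction, and 11 of 24 moved by more than their SD. Counting error was at most 3.45% of a subunit's count in a library, and lower depths were not tried.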
